A study of Rattus norvegicus with 18 samples.

Results

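Fast-twitch muscle fibre genes were followed in the healing rat femur. The group is a list of 10 genes chosen by name: the myosin heavy chains Myh1, Myh2 and Myh4, the myosin light chains Myl1 and Mylpf, the troponins Tnni2 and Tnnt3, and Pvalb, Atp2a1 and Ckm. All 10 were measured, out of 4736 genes with a probe set of their own, and they are read by 12 of the 8740 probe sets tested. A probe set is a group of short probes that usually reads 1 gene. Among the 12, a probe set shared by Myh1 and Myh2 is annotated to several genes. No cutoff on a measured value was used to choose them, but earlier results of these data were known.

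Fast-twitch fibres are the skeletal muscle cells that contract quickly, and they are told from slow-twitch fibres by the isoforms of their contractile proteins. Their thick filaments carry the fast myosin heavy chains IIa (Myh2), IIx (Myh1) and IIb (Myh4), their thin filaments carry a fast troponin complex that lets calcium switch contraction on, and they clear calcium rapidly and rebuild ATP from phosphocreatine. Injured muscle loses these transcripts as fibres die, and new fibres pass through a stage with embryonic and cardiac-type isoforms before adult ones return.

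The 18 arrays came from female Sprague-Dawley rats that were young (6 weeks of age at fracture), adult (26 weeks) or older (52 weeks), with 1 array for each age and time. The femur was fractured at mid-shaft with a rod in the marrow canal, and tissue was taken at 5 times, which were 0.4, 1 and 2 weeks and then 4 and 6 weeks later. The first of these is called 3 days in the labels. The 0 time controls, called 0 week below, were rats of these ages at fracture without a fracture, which the paper calls sham controls. Each array carried the RNA of 2 rats. Rats taken later were older than these controls by the weeks since fracture, so time after fracture and growth cannot be told apart. The sample was the middle part of the bone with its callus, cortex and marrow, and the labels do not name muscle as a component.

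The arrays had median signals between 149 and 188, and 10.5 to 17.9% of the probe sets lay below the floor of 20 that was set before taking log2. The ratio of the Gapdh probe sets at the 3' and 5' ends, a sign of RNA integrity, was 3.48 on the young 4 week array and 6.57 on the young 6 week array, and between 1.15 and 1.83 on the others. Bone and osteoblast genes, the markers of the labelled tissue, were present on every array, with a summed signal over 10 genes that ran from 30669 (older 0 week) to 159363 (young 2 week). In this bulk tissue, fewer muscle cells and less RNA per muscle cell cannot be told apart. Each week had 3 arrays, 1 of each age (n = 3), so the spread below holds the differences between ages.

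The sequence before the start of the 3 myosin heavy chain genes is shown because these neighbours on chromosome 10 differed widely in the size of their fall on the arrays. The RefSeq promoter table (rat build GRCr8) held 9 of the 10 genes, all except Tnnt3. The 250 bases before the annotated start, on the plus strand, were at chr10:52355489-52355738 for Myh2, chr10:52384662-52384911 for Myh1 and chr10:52421898-52422147 for Myh4. Capitals mark the letters TATAAA on the printed strand and the longest run of bases that all 3 share, which is 20 bases long and began 170 (Myh2), 166 (Myh1) and 177 (Myh4) bases before the start.
Myh2: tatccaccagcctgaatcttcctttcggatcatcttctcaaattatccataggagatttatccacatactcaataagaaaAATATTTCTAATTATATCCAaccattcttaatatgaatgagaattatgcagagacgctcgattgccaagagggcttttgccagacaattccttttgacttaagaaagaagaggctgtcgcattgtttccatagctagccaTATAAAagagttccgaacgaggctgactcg
Myh1: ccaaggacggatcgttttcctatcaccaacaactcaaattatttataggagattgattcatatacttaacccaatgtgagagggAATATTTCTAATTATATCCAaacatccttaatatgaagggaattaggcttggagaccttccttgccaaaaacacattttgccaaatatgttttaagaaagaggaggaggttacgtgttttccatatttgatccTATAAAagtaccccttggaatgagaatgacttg
Myh4: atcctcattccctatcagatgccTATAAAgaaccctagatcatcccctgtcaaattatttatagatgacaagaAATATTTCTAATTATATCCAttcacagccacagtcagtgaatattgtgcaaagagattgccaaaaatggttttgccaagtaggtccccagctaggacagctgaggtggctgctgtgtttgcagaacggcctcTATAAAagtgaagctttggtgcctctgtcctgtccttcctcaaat
The shared run occurred in 5 of the 33469 promoter entries of the same length, on either strand, and these 3 genes were among them. The letters TATAAA were found on either strand in 12.9% of all entries and in 5 of the 10 entries of the fast genes, where Myl1 has 2 entries. A MEF2 box, the type of site bound by a factor of muscle differentiation, was found in Myh1, Myh4 and Myl1 and in 2.96% of all entries, and in Myh1 and Myh4 it overlapped a match to TATAAA on the minus strand. These matches describe letters only, and binding was not measured.

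The upstream sequence of Ckm is shown for its E-boxes, the type of site that muscle regulatory factors such as MyoD bind. It lay on the plus strand at chr1:88189211-88189460, with the letters CAGCTG in capitals.
Ckm: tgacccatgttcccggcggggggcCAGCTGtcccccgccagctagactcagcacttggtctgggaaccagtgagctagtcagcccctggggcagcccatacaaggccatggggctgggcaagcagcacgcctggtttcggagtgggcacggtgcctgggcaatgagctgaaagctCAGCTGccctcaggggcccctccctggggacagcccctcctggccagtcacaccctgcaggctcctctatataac
Ckm held CAGCTG at 226 and 75 bases before its start. The same letters, which read alike on both strands, were found in Myh4, Mylpf and Atp2a1 as well, and in 12% of all entries. The broader form CANNTG, which includes CAGCTG, was found in 65.5% of all entries and in 8 of the 10 entries of the fast genes.

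At 0.4 week after fracture, 9 of the 10 fast fibre genes were down-regulated from the 0 week controls at an adjusted p under 0.05, against 17.1% of all probe sets. None was up-regulated, against 14.1% of all probe sets, and the count of genes higher at an unadjusted p under 0.05 in limma was also 0. The median change of the 10 genes was -2.36 on the log2 scale, while the median of all probe sets was -0.13. In all 10 genes the 3 arrays at 0.4 week lay below the 3 control arrays, which was true of 24.7% of all probe sets. The 9 genes ranged from Tnnt3, which fell 3.87-fold, to Myh2, which fell 38.1-fold.

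**Figure D1:**
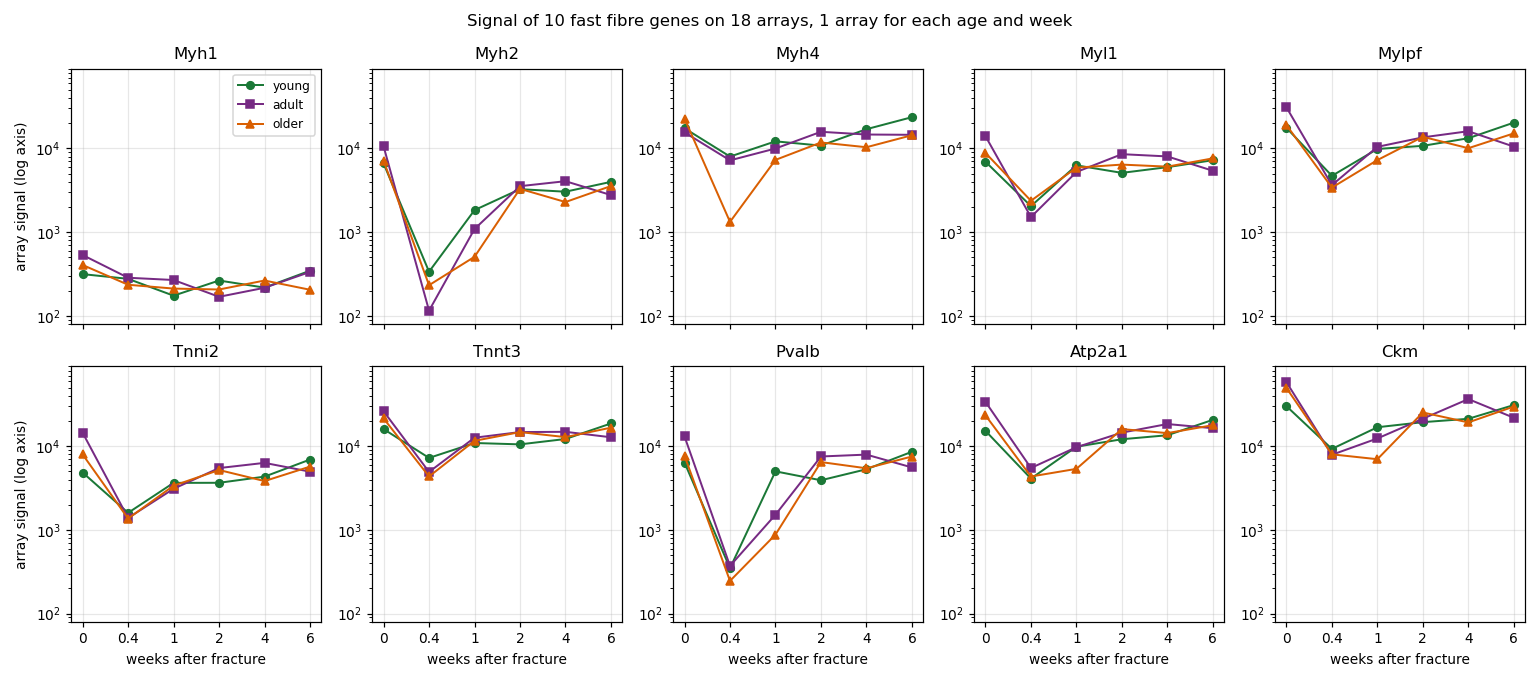
Signal of each of the 10 genes (log axis) against weeks after fracture, with 1 point for each array and 1 line for each age. Levels may be compared within a panel and not between panels, since different probe sets differ in brightness. Myh2 and Pvalb dropped to between 115 and 372 at 0.4 week, and Myh1 stayed between 168 and 532 throughout.

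Myh2, the heavy chain of the fast oxidative fibres, had the largest fall. The 0 week arrays of the young, adult and older rats read 6609, 10578 and 7120, and those at 0.4 week read 336, 115 and 232. It was 1830, 1089 and 507 at 1 week, and 3258, 3538 and 3286 at 2 weeks. The 3 ages were within 1.09-fold of each other at 2 weeks, and every array after fracture stayed below every control array. The change at 0.4 week was -5.25 (SE 0.43, limma, adjusted p = 6.54e-05).

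Pvalb, the calcium-binding protein that speeds relaxation of fast fibres, had the next largest fall. Its signal was 6386, 13108 and 7684 in young, adult and older rats at 0 week and 349, 372 and 246 at 0.4 week. At 1 week the ages were apart, at 5018 (young), 1521 (adult) and 880 (older), and by 2 weeks the signals were 3925, 7553 and 6478. The young array was thus highest of the 3 at 1 week and lowest at 2 weeks. The change at 0.4 week was -4.77 (SE 0.51, limma, adjusted p = 2.03e-04).

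Myh4, the heavy chain of the fastest fibres, fell by 2.11 on the log2 scale at 0.4 week (SE 0.48, limma, adjusted p = 0.00823), and its ages did not fall alike. The signal went from 17394 to 7990 in young rats, a 2.18-fold fall, and from 15548 to 7197 in adult rats, a 2.16-fold fall. In older rats it went from 22729 to 1325, a 17.2-fold fall on a single array. Without the adult arrays the adjusted p was 0.0891 (change -2.61), and without the older arrays it was 0.0743 (change -1.12). In each of the other 9 genes the adult array at 0.4 week, relative to its own control, was lower than the older one.

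Myh1, the IIx heavy chain, was the gene that did not pass the test at 0.4 week, with a change of -0.62 (SE 0.26, limma, adjusted p = 0.0875). Its own probe set, made from an expressed sequence tag, read 314, 532 and 404 in young, adult and older rats at 0 week and 276, 285 and 235 at 0.4 week. The 3 values at 0.4 week were below the 3 control values, but the lowest arrays came later, at 174 in young rats (1 week), 168 in adult rats (2 weeks) and 205 in older rats (6 weeks). A brighter probe set that is annotated to Myh1, Myh2 and the perinatal chain Myh8 together read 5806, 14597 and 7555 at 0 week and 1411, 2000.5 and 1688 at 0.4 week. It fell by 2.36 on the log2 scale (SE 0.26, limma, adjusted p = 2.13e-04). Because it is shared, it was not used to stand for either gene. It followed the Myh2 probe set (Pearson's r = 0.89 over the 18 arrays, log2 scale) more than the Myh1 probe set (r = 0.28), and whether the Myh1 tag reads a muscle transcript was not tested.

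The light chains and troponins fell together at 0.4 week. The fold falls given for them, and for Atp2a1 and Ckm below, come from the mean log2 signals. They are therefore not the ratios of the mean signals. Mylpf, the regulatory light chain of fast myosin, had a mean signal of 22547 ± 7348 (SD, n = 3) at 0 week and 3914 ± 691 at 0.4 week, a 5.63-fold fall. Its second probe set followed the first with r = 0.957. Myl1, the essential light chain, went from 9922 ± 3660 to 1974 ± 431, a 4.89-fold fall. Both light chains had all 3 arrays at 0.4 week below the lowest control array. Tnni2, the inhibitory subunit of fast troponin, went from 9113 ± 4918 to 1454 ± 128, a 5.69-fold fall. Tnnt3, the subunit that ties troponin to tropomyosin, went from 21255 ± 5078 to 5517 ± 1535. The spread of Tnni2 between ages was wide before fracture and narrow after it, with arrays from 4859 to 14497 at 0 week and from 1369 to 1602 at 0.4 week.

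The remaining genes were Atp2a1, the pump that returns calcium to the sarcoplasmic reticulum, and Ckm, muscle creatine kinase. Atp2a1 read 15296, 33965 and 23421 in young, adult and older rats at 0 week and 4111, 5501 and 4353 at 0.4 week, a 4.98-fold fall. Ckm read 30182, 58392 and 49820 at 0 week and 9304, 7914 and 8011 at 0.4 week, a 5.30-fold fall. The order of the ages before fracture, adult over older over young, was kept at 0.4 week in Atp2a1 and not in Ckm. The adjusted p over the light chains, troponins, Atp2a1 and Ckm ran from 2.53e-04 (Mylpf) to 8.46e-04 (Ckm) in limma. Without the adult arrays Ckm missed the threshold (-2.17, adjusted p = 0.0643).

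**Figure D2:**
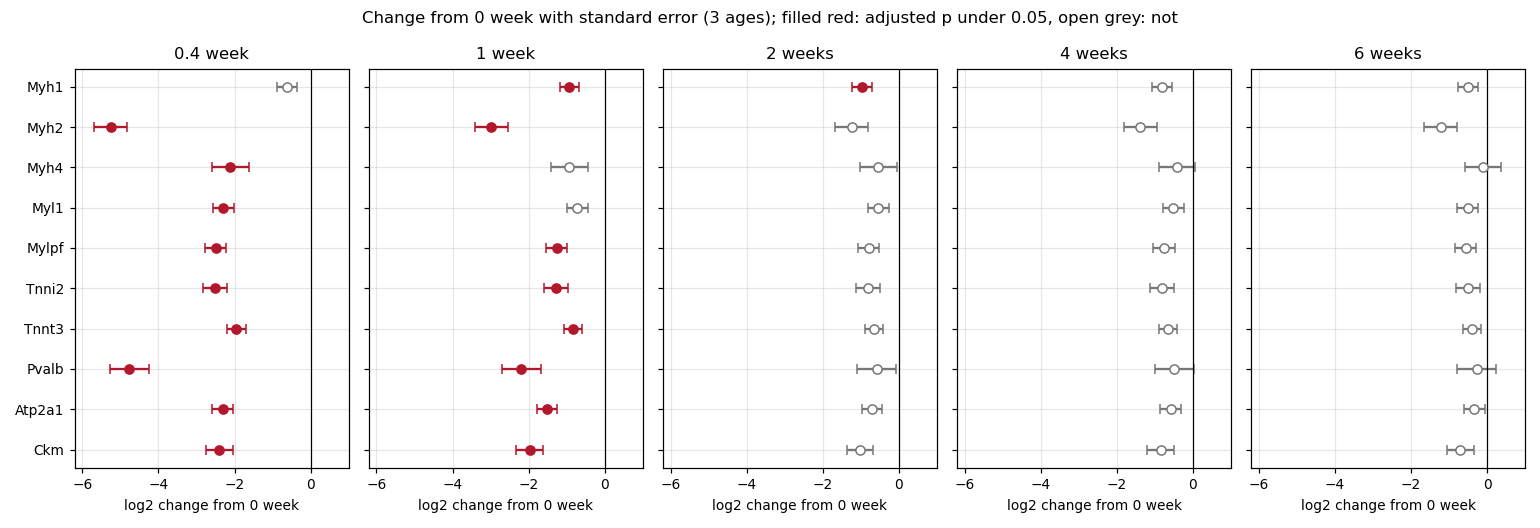
Change from 0 week on the log2 scale for each gene at the 5 later times, as points with bars of 1 standard error (n = 3 ages). Filled points passed the test at an adjusted p under 0.05. Filled points number 9 at 0.4 week, 8 at 1 week, 1 at 2 weeks and 0 at 4 and 6 weeks.

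At 1 week 8 of the 10 genes were still below the controls, against 20.4% of all probe sets, and the arrays of all 10 lay below the controls, against 27.0% of all probe sets. The exceptions in the test were Myl1 (-0.72, SE 0.27, adjusted p = 0.0626) and Myh4 (-0.93, SE 0.48, adjusted p = 0.152, limma). Myh2 (-2.98), Pvalb (-2.19), Ckm (-1.97) and Atp2a1 (-1.52) had the largest remaining falls. The count was 8 when the young arrays were left out, 1 when the adult arrays were and 0 when the older arrays were, with 9, 7 and 7 genes lower at an unadjusted p under 0.05 in these limma fits.

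From 0.4 to 1 week, 3 of the 10 genes rose, against 0.503% of all probe sets. They were Pvalb (5.95-fold, adjusted p = 0.0499), Myh2 (4.83-fold, adjusted p = 0.0415) and Myl1 (2.98-fold, adjusted p = 0.0322, limma). Each of the 3 was higher at 1 week than at 0.4 week at all 3 ages. Ckm differed in that its older array was lower at 1 week (7006) than at 0.4 week (8011), while the young and adult arrays were higher, at 16887 and 12403. Without the young 4 and 6 week arrays 0 genes were called in this step by limma, with 7 at an unadjusted p under 0.05, and leaving out the young, adult or older arrays left 1, 0 and 0, with 6 at an unadjusted p under 0.05 in each.

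By 2 weeks 1 of the 10 genes was called lower, which was Myh1 (-0.96, SE 0.26, limma, adjusted p = 0.0281), against 10.3% of all probe sets. At an unadjusted p under 0.05 in limma 7 genes were lower, against 1870 of the 8740 probe sets. The median change of the 10 genes was -0.75, and 5 genes had all 3 arrays below the controls, against 17.7% of all probe sets. The arrays of Myh4, Myl1, Tnni2, Pvalb and Atp2a1 overlapped those of the controls. Leaving out the adult 0 week array alone, or all arrays of the adult or of the older rats, left 0 genes, with 1 at an unadjusted p under 0.05 in each of these limma fits, and leaving out the young rats gave 3. The count rose to 4 with a floor of 1, to 4 with an offset of 50 in place of the floor, and to 7 when testing was limited to the 4108 probe sets averaging 200 or more.

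At 4 weeks 0 genes were called lower in limma, against 1.77% of all probe sets. At an unadjusted p under 0.05 in limma it was 6, against 1049 of the 8740 probe sets. At 6 weeks 0 genes were called lower as well, against 0.32% of all probe sets. At an unadjusted p under 0.05 in limma it was 1 gene, near the share of all probe sets (903 of 8740). Non-overlap with the controls was found for 4 genes at 4 weeks (8.50% of all probe sets) and for Myh2 alone at 6 weeks (7.79%). The median changes were -0.71 and -0.50. Myh2 was the member farthest from its control level at 6 weeks, at -1.22 (SE 0.43, limma, adjusted p = 0.143), with signals of 3984, 2772 and 3550 in young, adult and older rats. Myh4 was nearest, at -0.11 (SE 0.48), with signals of 23613, 14540 and 14363. A p that misses the threshold with 3 arrays a week does not show a full return.

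The return itself was called when the late weeks were set against 0.4 week. At 6 weeks 9 genes were above their 0.4 week level, against 6.01% of all probe sets, and at 4 weeks 8 were, against 4.87%. Pvalb rose 22.5-fold (log2 4.49, SE 0.51, adjusted p = 5.04e-04) and Myh2 16.3-fold (log2 4.03, SE 0.43, adjusted p = 3.54e-04) from 0.4 to 6 weeks. The others that passed rose between 2.95-fold (Tnnt3) and 4.02-fold (Myh4), and Myh1 differed by 0.12 on the log2 scale (SE 0.26, adjusted p = 0.869, limma). At 4 weeks Myh4 was the further gene that missed the threshold (log2 1.69, SE 0.48, adjusted p = 0.0528). Leaving out the adult arrays left 4 genes at 6 weeks and 1 at 4 weeks, and leaving out the older arrays left 3 and 2, with 9 genes higher at an unadjusted p under 0.05 in each case. Without the young 4 and 6 week arrays 7 genes were called at either week.

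Single steps after 1 week were not called. From 1 to 2 weeks 0 genes were called higher by limma, against 0.0458% of all probe sets. At an unadjusted p under 0.05 in limma 4 were higher, against 510 of the 8740 probe sets. The largest of these steps were Myh2 (log2 1.74, SE 0.43, adjusted p = 0.148) and Pvalb (log2 1.61, SE 0.51, adjusted p = 0.244). From 2 to 4 weeks the count was 0, against 0.618% of all probe sets, and from 4 to 6 weeks 0, against 0% of all probe sets, each with 0 genes at an unadjusted p under 0.05 in limma. The order of the weekly means was 0.4, 1, 2, 4, 6 and 0 week from lowest to highest for Myh4, Myl1, Mylpf, Tnni2, Pvalb, Atp2a1 and Ckm. The ranges of neighbouring weeks from 2 to 6 weeks overlapped in each of these 7 genes. A moderated F test over the 5 later weeks called 9 genes, against 26.4% of all probe sets, and Myh1 did not pass (adjusted p = 0.0821). That count was 8 when the young arrays were left out, 1 when the adult and 1 when the older arrays were.

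The 9 genes other than Myh1 kept nearly the same course over the arrays. The correlation of each with the mean of the others, over 18 arrays on the log2 scale, was between 0.91 and 0.98 for 8 genes, 0.80 for Myh4 and 0.30 for Myh1. The closest pair was Tnni2 and Mylpf (r = 0.970). These correlations are a description over arrays that share the same 6 times and the same scaling. The genes outside the group whose pattern was most like its mean, among 2574 gene symbols, were Tnnc2 (r = 0.980), Dhrs7c, Pgam2, Eno3, Tpm1, Pygm, Ldb3 and Casq1 (r = 0.948). Tnnc2 is the calcium-binding subunit of the same fast troponin, Pgam2, Eno3 and Pygm are enzymes of muscle glycolysis and glycogen breakdown, and Casq1 stores calcium in the sarcoplasmic reticulum. Tnnc2 fell by 2.26 on the log2 scale at 0.4 week (SE 0.24, limma, adjusted p = 2.03e-04).

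The control arrays of the 3 ages differed in level. The adult 0 week array was the highest of all 18 for 9 of the 10 genes, and Tnni2, for one, read 14497 there, 7984 on the older and 4859 on the young control array. The exception was Myh4, whose highest array was the young one at 6 weeks. Without the adult 0 week array, 9 genes were still called lower at 0.4 week and 6 at 1 week. At 0.4 week the signal, as a percentage of the control of the same age, had a median over the 10 genes of 30.1% (young), 12.6% (adult) and 17.5% (older). Each gene was lower than its own control at each of the 3 ages.

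At 6 weeks the young array stood apart from the other ages. The signal was above the own control in 9 of 10 genes for the young array and in 0 genes for either other age. The share of all probe sets with this pattern is not given here. Most of these genes followed each other closely over the arrays, so they do not count as independent. The median was 116% of the own control in young rats, 40.6% in adult rats and 73.9% in older rats. In the order young, adult and older, Tnni2 stood at 143%, 34.3% and 71.6% and Myh4 at 136%, 93.5% and 63.2%. Myh2 was the exception in young rats, at 60.3%. These percentages depend on the level of the control as well as on the 6 week array. The signals of Tnni2 differed 1.39-fold between the ages at 6 weeks and 2.98-fold at 0 week. For Myh4 the ages differed 1.64-fold at 6 weeks and 1.46-fold at 0 week. The young 6 week array was also the one with the Gapdh ratio of 6.57, and the part of this ratio in the result was not tested. At 4 weeks, where the young array had a ratio of 3.48, 0 genes were above the own control at any age, and the medians were 79.7%, 55.6% and 56.3% in young, adult and older rats.

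**Figure D3:**
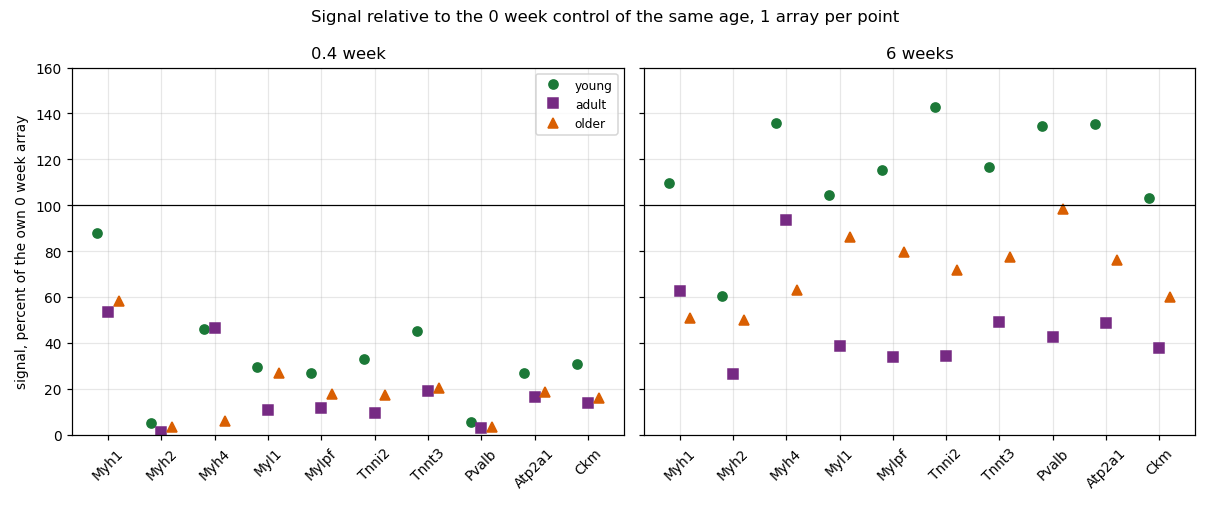
Signal as a percentage of the 0 week array of the same age at 0.4 week and at 6 weeks, with 1 point for each gene and age, so that points have no error bar. The line at 100 is the own control. At 6 weeks the young points lay above the line for 9 genes, and the adult and older points lay below it for all 10.

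Differences between ages did not pass the test in the fit over all probe sets. The change from the own control at 4 and 6 weeks was lower in older than in young rats for 0 genes in limma, against 2.85% of all probe sets, with 0 at an unadjusted p under 0.05 and a median difference of -0.56. For adult against young rats it was 0 genes, against 3.17%, with 1 at an unadjusted p under 0.05 and a median of -0.92. That gene was Tnni2 (-1.54, SE 0.50, limma, adjusted p = 0.146). A count of 1 in 10 was near the share of all probe sets at that unadjusted p, 835 of 8740. At 0.4 to 2 weeks the change was lower in 0 genes for older against young rats (2.49% of all probe sets, 0 at an unadjusted p under 0.05, median -0.70) and in 0 genes for adult against young rats (3.87%, 1 at an unadjusted p under 0.05, median -0.96). Tnni2 was again the gene (-1.53, SE 0.47, limma, adjusted p = 0.12), and its count was again near the share of all probe sets, 1088 of 8740.

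The levels after fracture were also compared without reference to the control. At 4 and 6 weeks 0 genes were lower in older than in young rats (0.618% of all probe sets) and 0 in adult than in young rats (0.24% of all probe sets), with 0 at an unadjusted p under 0.05 in both limma comparisons. The median differences were -0.16 and -0.02. The largest was Myh4 in older against young rats, at -0.72 (SE 0.59, adjusted p = 0.655). With 1 control array for each age, these tests do not show that the ages were alike. In simulated data, the older against young test of the change at 4 and 6 weeks called 0.5% of 2-fold changes.

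Slow fibre genes fell at the same time. Of 12 measured, 11 were down-regulated at 0.4 week, against 17.1% of all probe sets, with a median of -3.07. On the log2 scale the ventricular and slow-twitch light chain Myl2 changed by -6.84 and Myh6 by -4.41. Myl3 changed by -4.33 and the mitochondrial creatine kinase Ckmt2 by -4.22. Tpm3, a tropomyosin that non-muscle cells also make, was the exception and rose by 0.97 (SE 0.13, limma, adjusted p = 5.83e-04). At 6 weeks 1 slow fibre gene was called lower than the controls, against 0.32% of all probe sets. It was the fatty acid carrier Fabp3 (-1.49, limma, adjusted p = 0.0384). At an unadjusted p under 0.05 in limma, 8 of the 12 slow fibre genes were lower at 6 weeks, against 903 of the 8740 probe sets. From 0.4 to 6 weeks 10 rose, against 6.01% of all probe sets, and Tpm3 fell, against 6.06%. The difference between the fast and slow lists was not tested.

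Other muscle genes fell with the fast fibre genes at 0.4 week, when 17.1% of all probe sets were called lower. The fall was called for 10 of 15 filament genes (median -1.48), such as Ldb3 of the Z-disc (-4.66), and for 9 of 11 genes of excitation and calcium release (median -1.49), such as Casq1 (-4.28). In muscle energy metabolism 12 of 17 genes fell (median -2.13), led by Pgam2 (-3.76), Eno3 (-3.48) and Pygm (-3.35). At 6 weeks 0 genes of these 3 lists were called lower than the controls by limma, against 0.32% of all probe sets. At an unadjusted p under 0.05 in limma 4, 5 and 8 were lower, against 903 of the 8740 probe sets. At 0.4 week 2 of 10 nerve-muscle junction genes fell and 1 rose, the acetylcholine receptor subunit Chrna1. These counts of junction genes were near the 17.1% and 14.1% of all probe sets. At 1 week Chrna1 (2.96), Chrnd (1.31), Chrne (1.34) and Agrn (1.23) were called higher, against 14.6% of all probe sets. The other genes of this list were not called at 1 week.

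Some genes of embryonic and regenerating muscle rose while the fast fibre genes were low. Of 16 measured, 4 rose and 2 fell at 0.4 week, against 14.1% and 17.1% of all probe sets. At 1 week 8 rose and 2 fell, against 14.6% and 20.4% of all probe sets, so the counts of genes that fell were not above those shares. At 0.4 week the genes that rose were Tnnt2 (2.56), the troponin T of embryonic and cardiac muscle, Myog (2.30), the factor that drives myoblasts to differentiate, Chrna1 (1.84) and the cell cycle inhibitor Cdkn1a (1.78). Those that fell were Megf10 (-1.13) and the caveolin Cav3 (-0.91). Megf10 had a mean signal of 34.1 over the 18 arrays, near the floor of 20. At 1 week the atrial and embryonic light chain Myl4 had risen by 5.52 (SE 1.19, limma, adjusted p = 0.00632), Actc1 by 2.80, and the perinatal heavy chain Myh8 by 2.10. The mean signal of Myh8 over the arrays was also low, at 54.0. The embryonic heavy chain Myh3 gave 1.17 (SE 0.43, limma, adjusted p = 0.0528). At 6 weeks 0 of the 16 genes was called in either direction by limma. At an unadjusted p under 0.05 in limma 1 was higher and 1 lower, against 889 and 903 of the 8740 probe sets.

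**Figure D4:**
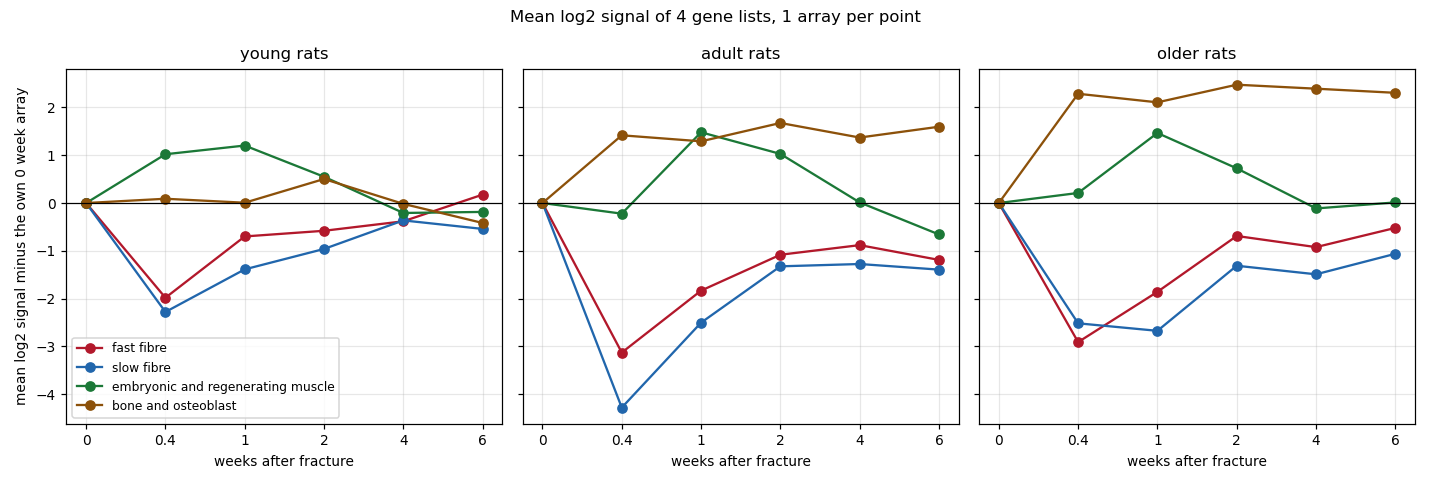
Mean log2 signal of 4 gene lists relative to the 0 week array of the same age, against weeks after fracture, with 1 point for each array and 1 panel for each age. Fast (10 genes) and slow (12 genes) fibre lists dropped at 0.4 week at every age, and the embryonic and regenerating muscle list (16 genes) was highest at 1 week at every age.

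Markers of blood cells were low on the same arrays. All 7 erythroid genes measured fell at 0.4 week (median -3.23), against 17.1% of all probe sets. Their summed signal was 72662 to 106996 on the control arrays and 10872 to 19722 at 0.4 week. Of 7 granulocyte genes 6 fell (median -2.28), with a summed signal of 13915 to 27150 at 0 week and 862 to 9638 at 0.4 week. All 7 erythroid genes and 5 granulocyte genes rose again from 0.4 to 6 weeks, against 6.01% of all probe sets. The summed signal of the 10 fast fibre genes was 121648 to 217813 at 0 week and 25898 to 37968 at 0.4 week, so fast fibre genes, red cell genes and granulocyte genes were all low on the same 3 arrays. Their part in each other's fall on these arrays, which are scaled to a common average, was not tested.

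Against these falls, 5 of 10 bone and osteoblast genes rose at 0.4 week and 1 fell, and 3 of 7 cartilage genes rose, against 14.1% of all probe sets higher and 17.1% lower. Cartilage genes reached 6 of 7 higher at 1 week and at 2 weeks, against 14.6% and 9.49% of all probe sets. Of 8 macrophage genes 3 rose and 1 fell, and of 8 adipocyte genes 4 fell. Of 5 endothelial genes 1 fell and of 8 smooth muscle genes 1 rose, which are counts near the shares of all probe sets. The bone and osteoblast list had its highest control level in the young rats, whose mean log2 signal was 12.63 at 0 week and 12.72 at 0.4 week, compared with 10.10 and 12.38 in older rats.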

How the data were processed

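RNA was measured on 18 Affymetrix rat arrays, 1 for each of 3 ages and 6 times; these are 1 of the study's 3 arrays per age and time. The deposited values are linear intensity signals, which the authors computed with Microarray Suite, with the average of each array set to 500, and which were used with no further normalization. Of 8799 probe sets, 59 controls were left out. Through a platform annotation with updated symbols, 7006 of the 8740 tested had 1 gene symbol, 308 several and 1426 none. Mylpf is listed under the current symbol Myl11. The brightest probe set of a gene alone led it, and a probe set annotated to several genes did not lead.

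A floor of 20 was applied before log2. The time course was fitted with limma 3.58.1 in R 4.3.3 (additive terms for age and week, intensity trend, p-values adjusted by Benjamini-Hochberg over the 8740 probe sets and called at 0.05), and ages with week and an age term for each of 3 phases (0 week, 0.4 to 2 weeks, 4 and 6 weeks). Every label names the same series, and no label says whether arrays within it came from separate experiments beyond the pooled rats. The p-values of the time course measure the spread left after the age and week terms. This spread holds differences between ages in their course over the weeks, and differences between single arrays. In the age fit, p-values measure how far the age differences vary between the weeks of a phase. The fits were tested on simulated data in which 200 probe sets changed. At 0.4 against 0 week 33.5% of 2-fold and 86.5% of 4-fold changes were called. For the change at 4 and 6 weeks in older against young rats, 0.5% and 21.5% were called, so this age test misses most changes of that size.

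The members, the 14 other gene lists (151 of 217 genes in all lists measured), the tests and the rule for named genes were chosen with earlier results of these data known. The rule names all members, up to 4 called genes of each muscle list with the largest change at 0.4 week, list genes called in the direction opposite to the members, and the 8 genes most like the members' mean. Myl4, Actc1, Myh8, Myh3, Chrna1, Chrnd, Chrne and Agrn at 1 week, and Fabp3, were named after their values were seen. Motifs were searched in the 250 bases before each start in the RefSeq promoter table. Figures were drawn with matplotlib in Python.

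Alternatives were quantile normalization, median scaling, a floor of 1 or an offset of 50 in its place, only probe sets averaging at least 200, fits without the intensity trend, the age term or the week term, each age left out, the young 4 and 6 week arrays left out, either late week left out, late arrays of 2 ages alone, the mean or the brightest by median of a gene's probe sets, and the methods' t-test, for which no threshold over all probe sets is stated, so that the study's threshold for comparing single arrays (0.005) was used. Leaving out the adult 0 week array, and the early phase without the young late arrays, were chosen after seeing the data.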

Additional observations from a re-analysis of the deposited data

Results flagged for a closer look

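At 6 weeks the young array was above its own 0 week array for 9 genes whose adult and older arrays were both below theirs. As a percentage of the own control, the young values were 110% for Myh1, 136% for Myh4, 104% for Myl1, 115% for Mylpf, 143% for Tnni2, 117% for Tnnt3, 135% for Pvalb, 135% for Atp2a1 and 103% for Ckm. Each of these rests on 1 array and 1 control for each age. The controls differed in level between ages and were not aged along with the fractured rats. The difference at this single time was not tested, and the share of all probe sets with this pattern is not given here. The young 6 week array had the Gapdh 3' to 5' ratio of 6.57, and the part of this ratio was not tested.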

How the results depend on the processing

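The fall at 0.4 week (9 genes called) kept 7 to 9 genes without any 1 age, and 4 after Benjamini-Hochberg adjustment of the methods' t-test. Without any 1 age, the counts ranged from 0 to 8 for lower at 1 week (8 called), 0 to 3 at 2 weeks (1 called), 0 to 1 at 4 weeks (0 called), 0 to 1 for higher at 1 than at 0.4 week (3 called), 1 to 7 for 4 against 0.4 week (8 called), 3 to 7 for 6 against 0.4 week (9 called) and 1 to 8 for the F test (9 called). These fits have 2 arrays a week. The count at 2 weeks was 4 with a floor of 1, 4 with an offset of 50, 7 with a mean signal of at least 200, 2 with the mean of all probe sets, and 0 without the adult 0 week array and by the methods' t-test after Benjamini-Hochberg adjustment. At 4 weeks it was 1 with an offset of 50, with a mean signal of at least 200 and with the mean of all probe sets. At 1 against 0.4 week it was 5 with quantile normalization, a floor of 1, an offset of 50 or a mean signal of at least 200, and 0 without the young 4 and 6 week arrays. The methods' t-test called 0 genes at 1 week, both after Benjamini-Hochberg adjustment and at an unadjusted p under 0.005, which is the study's threshold for comparing single arrays and not one stated for its t-test, with 8 at an unadjusted p under 0.05. The cause of these shifts was not tested, beyond the fewer arrays or probe sets in those fits. Of the single-gene changes that were recomputed, 503 kept their side of the threshold and direction, 25 lost the call, 2 gained it (Myh1 with the mean of its probe sets, -1.49 and 0.88) and 0 reversed. Quantile normalization moved the median change of all probe sets at 0.4 week from -0.13 to -0.01 and that of the 10 genes from -2.36 to -2.09, with 9 called. The number of arrays limits the precision. The age term of the time fits already sets each array against those of its own age, so it pairs the weeks. Without it the counts stayed at 9, 8 and 1 genes lower at 0.4, 1 and 2 weeks, and the count higher at 1 than at 0.4 week was 4.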
